A study of Mus musculus with 8 samples.

Results

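Described here are 10 transcription factors used across the endocrine cells of the pancreatic islet (Neurod1, Rfx6, Myt1, Insm1, Nkx2-2, Nkx6-1, Pax6, Isl1, Foxa1 and Foxa2) in alphaTC6 cells, a clonal mouse line of glucagon-producing alpha cells that came from a tumour. They were taken by gene symbol from the 55536 genes of the count table, and all 10 were found. Poly(A) RNA was sequenced from wild-type alphaTC6 cells 48 h after reverse transfection by lipid reagent, with small interfering RNAs (siRNAs), which were either a pool directed at Klf4 (4 libraries) or a scramble control (4 libraries). All 8 libraries thus share the cell line and the transfection, no untransfected cells were analysed here, and the design text calls the replicates biological. Batch 1 held scramble replicates 1 and 2 and Klf4 siRNA replicates 1, 2 and 4, and batch 2 held scramble replicates 3 and 4 and Klf4 siRNA replicate 3, so that batch 2 has a single Klf4 siRNA library. The question of the study was which genes the zinc finger factor Klf4 regulates in alpha cells, and here it is asked of the factors that alpha cells share with the other islet cells.

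Islet endocrine cells of all types arise from progenitors that pass through a short phase of Neurog3 expression, and the factors described here act before, during or after that phase. Several of them bind each other's regulatory regions and the hormone genes, and most stay on in mature cells, where they keep the hormone and secretory genes active. Nkx6-1 is the exception: in the mature mouse islet it is known as a beta cell factor, and it is required there to keep alpha cell genes off.

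The library totals ran from 45954151 to 64185987 counts. Klf4 itself had 35.1 to 46.8 CPM (the usual depth-scaled count, with library totals adjusted by edgeR's TMM factors) in scramble libraries and 11.5 to 19.8 CPM after Klf4 siRNA (log2 fold change -1.33, edgeR adjusted p = 0.0083). Leaving out scramble replicate 1 gave -1.27 with an adjusted p of 0.052, and batch 1 alone gave -1.39 with 0.104. Of 10 alpha cell markers, 9 had enough counts to be tested, and their summed level was 6504 to 14620 CPM in scramble and 6303 to 13310 CPM in Klf4 siRNA libraries. The glucagon gene Gcg had 1065 to 1257 CPM in batch 1 and 7640 to 8913 CPM in batch 2. Of the 7 beta cell markers, Ins1, Ins2, Pdx1 and Ucn3 had 0 counts in all 8 libraries, and the list summed to 3.09 to 3.93 CPM. The delta cell hormone gene Sst had at most 2 counts in a library, while the delta cell list summed to 1200 to 1349 CPM through Rbp4, a retinol carrier. The share of mitochondrial counts was 4.11% to 5.89%. The noncoding RNA Gm42418 ran from 767 CPM in scramble replicate 3 to 16436 CPM in scramble replicate 4, and its part in the results below was not tested.

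Of the 10 factors, 9 had enough counts to be tested, and Foxa1 had 0 counts in all 8 libraries. After Klf4 siRNA, Neurod1 rose to 133% of the scramble level, Rfx6 to 114%, Myt1 to 110.5% and Pax6 to 108%, while Nkx6-1 fell to 92.0%. For Nkx2-2, Isl1, Insm1 and Foxa2 the difference did not pass the threshold. The count of 5 of 9 (4 higher, 1 lower) stands beside 11.7% of all 16333 tested genes called in either direction, 4.88% called higher and 6.81% called lower. Only Neurod1, Rfx6 and Myt1 were called in every fit that left out a single library. The count was 3 without scramble replicate 1, scramble replicate 2, Klf4 siRNA replicate 1 or Klf4 siRNA replicate 3, and the count over all genes fell from 1909 to 934, 1012 and 1232 without scramble replicate 1, scramble replicate 2 and Klf4 siRNA replicate 3. Without the batch term only Neurod1 was called. The 9 factors had a median log2 fold change of 0.051, against 4.33e-05 for all tested genes. In bulk samples such as these, fewer cells of a type and less RNA per cell cannot be told apart.

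**Figure D1:**
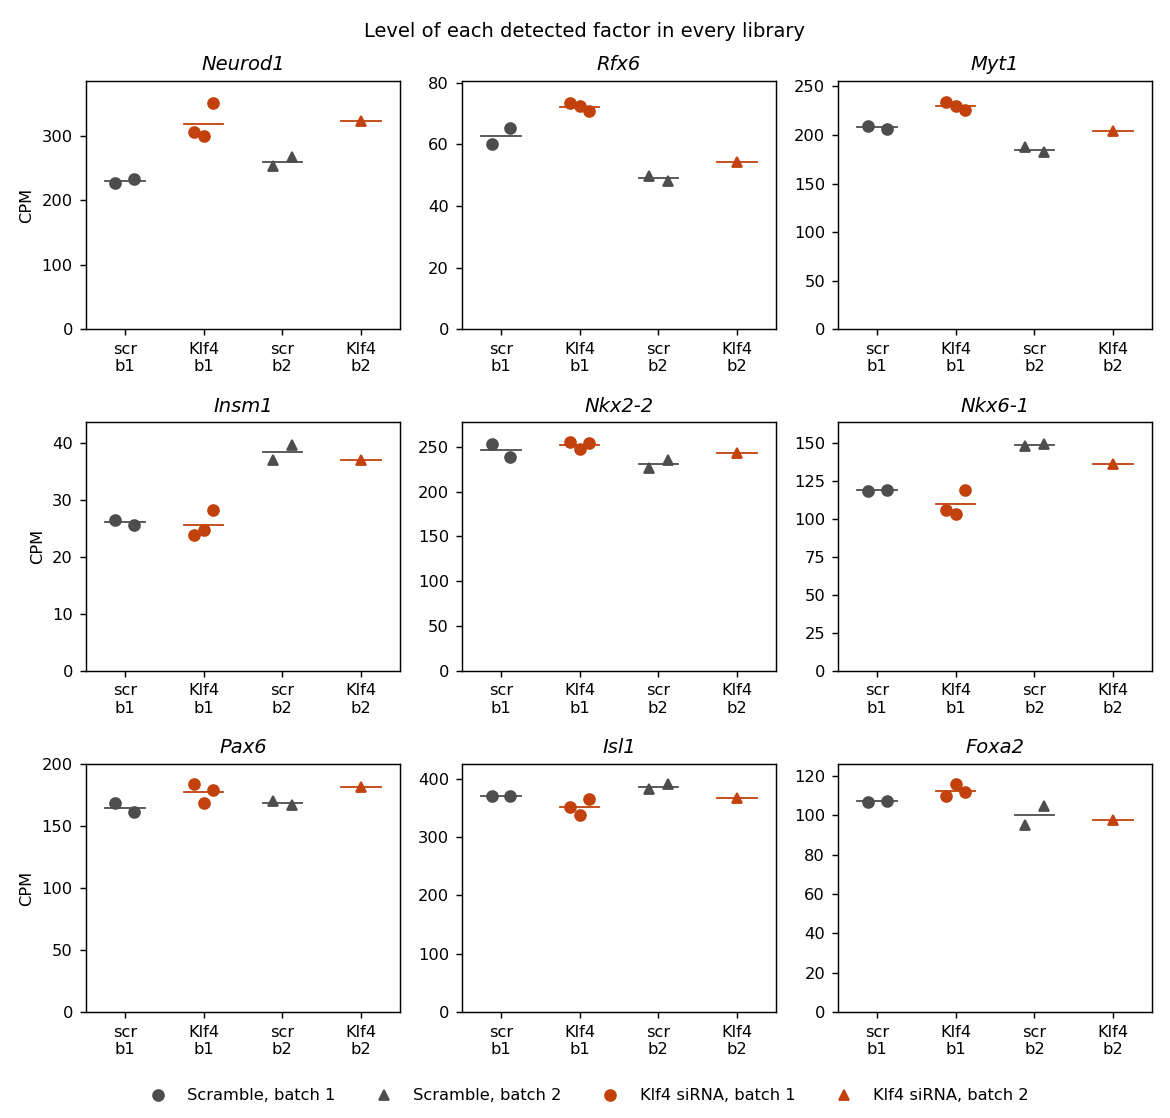
CPM of each of the 9 detected factors (y axis from 0) in every library, by treatment (grey scramble, "scr"; orange Klf4 siRNA, "Klf4") and batch (circles batch 1, "b1"; triangles batch 2, "b2"), with short lines at the mean of each treatment within a batch. Neurod1 lay at 227 to 266 CPM in scramble and at 299.6 to 349.7 CPM in Klf4 siRNA libraries, whereas Insm1 was separated by batch and not by treatment.

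The windows around the transcription starts of factors that passed the threshold are shown first, because Klf4 and its relatives are known to bind CACCC boxes and because these genes moved in the same comparison. Each window runs from 250 bases before to 50 bases after a RefSeq start (build GRCm38.p6), 5′ to 3′ on the strand of the gene, and capitals mark each CACCC or its reverse complement GGGTG. For Myt1 (3 windows in the table) and Pax6 (2 windows), the window with the lowest coordinate is printed. By the gene coordinates given below, the Rfx6 window lies wholly inside the gene, which starts at 51677756. The Nkx6-1 window also lies inside its gene, whose 5′ end on the minus strand is at 101664996. Neither of these windows covers the 5′ end of the gene in that annotation.
Neurod1, chr2:79456587-79456886, minus strand: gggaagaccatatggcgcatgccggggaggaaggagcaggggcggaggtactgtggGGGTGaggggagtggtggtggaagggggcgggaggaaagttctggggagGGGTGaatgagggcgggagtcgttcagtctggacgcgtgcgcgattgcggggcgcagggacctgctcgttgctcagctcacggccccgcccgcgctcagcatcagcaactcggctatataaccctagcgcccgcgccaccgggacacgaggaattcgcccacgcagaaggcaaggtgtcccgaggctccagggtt
Rfx6, chr10:51685268-51685567, plus strand: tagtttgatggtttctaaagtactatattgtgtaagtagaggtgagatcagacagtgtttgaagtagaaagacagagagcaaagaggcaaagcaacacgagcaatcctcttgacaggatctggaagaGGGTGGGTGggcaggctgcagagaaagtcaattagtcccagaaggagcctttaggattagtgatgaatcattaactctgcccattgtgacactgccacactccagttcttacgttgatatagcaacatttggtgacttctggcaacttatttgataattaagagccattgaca
Myt1, chr2:181763082-181763381, plus strand: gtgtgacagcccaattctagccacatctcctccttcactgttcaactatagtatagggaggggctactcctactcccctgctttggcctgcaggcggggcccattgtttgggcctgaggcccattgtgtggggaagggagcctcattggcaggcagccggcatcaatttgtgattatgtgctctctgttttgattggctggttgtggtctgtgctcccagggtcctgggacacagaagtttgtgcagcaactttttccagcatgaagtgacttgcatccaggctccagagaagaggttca
Pax6, chr2:105668646-105668945, plus strand: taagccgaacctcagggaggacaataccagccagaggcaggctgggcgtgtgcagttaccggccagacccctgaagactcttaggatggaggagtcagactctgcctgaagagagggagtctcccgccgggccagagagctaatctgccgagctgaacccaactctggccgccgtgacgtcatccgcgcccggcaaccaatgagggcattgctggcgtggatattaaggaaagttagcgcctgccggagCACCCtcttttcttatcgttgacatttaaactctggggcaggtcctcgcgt
Nkx6-1, chr5:101664662-101664961, minus strand: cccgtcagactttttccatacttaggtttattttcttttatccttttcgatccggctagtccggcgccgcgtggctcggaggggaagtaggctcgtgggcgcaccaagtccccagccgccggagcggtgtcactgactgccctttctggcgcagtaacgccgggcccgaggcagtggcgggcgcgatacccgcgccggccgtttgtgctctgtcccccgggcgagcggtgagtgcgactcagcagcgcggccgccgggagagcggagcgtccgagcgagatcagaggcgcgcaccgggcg
The Neurod1 window holds 2 CACCC matches, at 194 and 145 bases before the start, and the Rfx6 window holds 2 that overlap each other. The Pax6 window holds 1, which spans the start itself, and those of Myt1 and Nkx6-1 printed here hold 0.

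Matches of this kind were common in promoters at large. On both strands, CACCC occurred in 9 of the 14 windows available for 9 of the factors (64.3%), and in 57.5% of all 32851 windows of the same length. The longer word CCNCNCCC, which can overlap CACCC, occurred in 9 of 14 windows and in 49.5% of all. The E-box CANNTG, the word bound by Neurod1 with its E protein partners, was found in 9 of 14 windows and 72.3% of all. The homeodomain word TAATTA occurred in 1 of 14, that of Rfx6, and in 5.29% of all. The Neurod1 window holds 5 CCNCNCCC matches and 1 E-box, whereas the Rfx6 window holds 0 and 1. GC content was 66.7% for Neurod1, 67.3% for Nkx6-1 and 58.7% for the Pax6 window shown, against a median of 52.7% over all windows. It was 42.3% for the Rfx6 window, which lies inside the gene. A match here describes letters and does not show a binding site.

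In the genome, 6 of the 10 genes (Neurod1, Pax6, Insm1, Nkx2-2, Foxa2 and Myt1) lie on chromosome 2, which carries 7.64% of the tested genes. Nkx2-2 and Foxa2 are 848.6 kb apart there. The tested genes of chromosome 2 had a median treatment log2 fold change of 0.0011, and 13.2% of them were called.

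Levels were compared between genes only per length, as CPM per kb of exon in the scramble libraries. Isl1 was highest at 95.6 ± 2.48 CPM per kb (SD, n = 4), followed by Neurod1 at 89.6 ± 6.68 and Nkx2-2 at 82.9 ± 3.89. The spreads of Isl1 and Neurod1, and those of Neurod1 and Nkx2-2, overlapped. Foxa2 (43.7 ± 2.39) and Nkx6-1 (42.5 ± 5.49) formed the next level and were not separated by their spread. Myt1 stood at 27.3 ± 1.90, Pax6 at 14.3 ± 0.336, Rfx6 at 13.9 ± 2.07 and Insm1 at 10.4 ± 2.31 CPM per kb, and the last 3 of these overlapped with a neighbour. By the mean over all 8 libraries, Insm1 lay above 67.8% of tested genes on this scale, and Neurod1 above 97.8%. The length matters for Pax6, whose 26 annotated transcripts have a union of 11.7 kb of exon. With the longest transcript (4.43 kb) the level of Pax6 was 37.7 ± 0.888 CPM per kb. That level was above the mean of Myt1 on the same scale (35.6 ± 2.47), though within the spread of Myt1. With the longest transcripts Nkx2-2 (112.4 ± 5.28) also passed Neurod1 (89.6 ± 6.68).

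**Figure D2:**
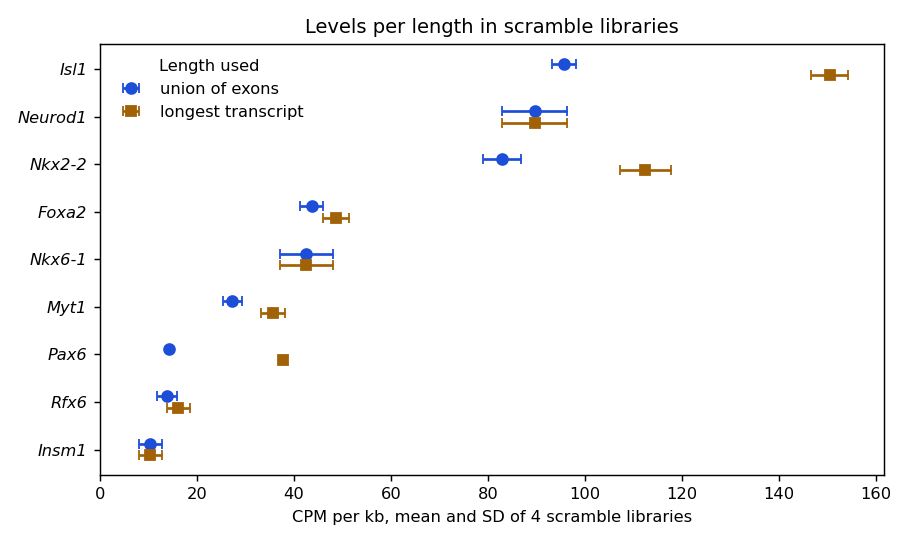
Levels per length (x axis, CPM per kb) of the 9 detected factors in scramble libraries, as mean and SD of 4 libraries, with the union of exons (blue circles) or the longest transcript (brown squares) as length; the SD of Pax6 is smaller than its symbol. Isl1, Neurod1 and Nkx2-2 stood above 80 CPM per kb on both scales, and the place of Pax6 moved from 14.3 to 37.7 CPM per kb with the length used.

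Neurod1 (ENSMUSG00000034701, chromosome 2, 79452521 to 79456751 of GRCm38, minus strand, 2 exons) encodes a basic helix-loop-helix factor that acts after Neurog3 and activates hormone and secretory genes. In batch 1 the scramble libraries stood at 227 and 232 CPM, against 305, 299.6 and 349.7 CPM after Klf4 siRNA. Batch 2 gave 253 and 266 CPM for scramble against 323 CPM after Klf4 siRNA. Every Klf4 siRNA library was above every scramble library, which held in either direction for 10.5% of tested genes. The log2 fold change was 0.41 (standard error 0.055, 95% interval 0.29 to 0.54, edgeR adjusted p = 0.0011), the largest of the 9 factors, and it ranked 705 of 16333 genes by absolute size. It was 0.47 within batch 1 and 0.31 within batch 2, and lay between 0.36 and 0.47 with each library left out. The exons of Neurod1 share 201 bases (7.37% of their length) with Cerkl on the same strand and 154 bases with the lincRNA Gm26755 on the opposite strand. Cerkl had 592 to 726 counts and Gm26755 50 to 81 counts in a library, against 10921 to 18552 for Neurod1, and the log2 fold change of Cerkl was 0.083 (edgeR adjusted p = 0.508). Neurod1 was the member with the largest change and the one whose call no alternative ended.

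Rfx6 (ENSMUSG00000019900, chromosome 10, 51677756 to 51730432, plus strand) encodes a winged-helix factor required for the formation of alpha, beta and delta cells. It had 60.1 and 65.4 CPM in scramble and 73.3, 72.5 and 70.7 CPM in Klf4 siRNA libraries of batch 1. In batch 2 its level was lower, at 49.7 and 48.1 CPM in scramble and 54.4 CPM after Klf4 siRNA. The treatments overlapped over all 8 libraries but did not overlap within either batch. The log2 fold change was 0.18 (standard error 0.033, 95% interval 0.12 to 0.25, edgeR adjusted p = 0.00075), at 0.20 within batch 1 and 0.15 within batch 2. Without the batch term the log2 fold change of Rfx6 was 0.28 and the adjusted p 0.371.

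Myt1 (ENSMUSG00000010505, chromosome 2, 181763332 to 181827797, plus strand) encodes a zinc finger factor that promotes endocrine differentiation together with Neurog3. The scramble libraries of batch 1 had 209 and 206 CPM and the Klf4 siRNA libraries 234, 230.1 and 225 CPM. In batch 2 the values were 187 and 182 CPM against 204 CPM. Each Klf4 siRNA library thus exceeded both scramble libraries of its own batch, by nearly the same amount in the batches (0.14 on the log2 scale in each). The fitted log2 fold change was 0.14 (standard error 0.026, 95% interval 0.089 to 0.20, edgeR adjusted p = 0.00085), and without the batch term it was 0.19 with an adjusted p of 0.152.

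Insm1 (ENSMUSG00000068154, chromosome 2, 146221921 to 146225020, plus strand), a single-exon gene, encodes a zinc finger factor that is required for the differentiation of endocrine cells and can act as a repressor through histone-modifying complexes. In batch 1 it had 26.5 and 25.6 CPM with scramble and 23.8, 24.7 and 28.2 CPM with Klf4 siRNA, and in batch 2 it had 37.1 and 39.6 CPM against 37.0 CPM. The treatments overlapped in batch 1, with Klf4 siRNA replicate 4 highest. The log2 fold change was -0.037 with a 95% interval of -0.14 to 0.067 (edgeR adjusted p = 0.732).

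Among the homeodomain factors, Nkx2-2 (ENSMUSG00000027434, chromosome 2, 147177546 to 147194243, minus strand) is the one the series title names beside Klf4, and it is known to set the choice between islet cell types. It had 253 and 239 CPM in scramble and 255, 247 and 254 CPM in Klf4 siRNA libraries of batch 1, and 226 and 235 CPM against 244 CPM in batch 2. The groups overlapped in batch 1. The 95% interval of the log2 fold change of 0.051 ran from -0.0086 to 0.11 (edgeR adjusted p = 0.297), so a change of a size like that of Neurod1 lay outside it. Its exons share 278 bases with the antisense gene Nkx2-2os, which had 67 to 104 counts in a library.

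Pax6 (ENSMUSG00000027168, chromosome 2, 105668900 to 105697364, plus strand) encodes a paired and homeodomain factor that activates the glucagon gene and other genes of alpha cells. It had 169 and 162 CPM in scramble and 184, 169 and 179 CPM in Klf4 siRNA libraries of batch 1, and 171 and 168 CPM against 182 CPM in batch 2. Klf4 siRNA replicate 2 lay within 1 CPM of scramble replicate 1, and the other Klf4 siRNA libraries were above all scramble libraries. The log2 fold change was 0.10 (standard error 0.030, 95% interval 0.042 to 0.17, edgeR adjusted p = 0.026), at 0.10 within batch 1 and 0.11 within batch 2. The call was lost without scramble replicate 1 (adjusted p = 0.055), scramble replicate 2 (0.180), Klf4 siRNA replicate 1 (0.080) or Klf4 siRNA replicate 3 (0.119), with library size alone as scaling (0.055), in batch 1 alone (0.150) and without the batch term (0.217). In those fits Pax6 had a log2 fold change of 0.088 to 0.12.

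Isl1 (ENSMUSG00000042258, chromosome 13, 116298281 to 116309689, minus strand) encodes a LIM homeodomain factor needed for the maturation and survival of islet cells. In batch 1 both scramble libraries were at 371 CPM and those with Klf4 siRNA at 351, 338 and 365 CPM, and 382 and 391 CPM against 367 CPM in batch 2. Every Klf4 siRNA library was below every scramble library, yet the difference was small, with a log2 fold change of -0.076, a standard error of 0.029 and a 95% interval of -0.14 to -0.015. It did not pass the threshold over all genes (edgeR adjusted p = 0.107), and passed it only without Klf4 siRNA replicate 4 (0.029).

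Nkx6-1 (ENSMUSG00000035187, chromosome 5, 101658139 to 101664996, minus strand) was present in every library of this alpha cell line, with 5219 to 9475 counts, although the beta cell genes Ins1, Ins2 and Pdx1 had 0. It had 118 and 119 CPM in scramble and 106, 103 and 119 CPM in Klf4 siRNA libraries of batch 1, and 148 and 149 CPM against 136 CPM in batch 2. Klf4 siRNA replicate 4 was at the level of the scramble libraries of its batch, and the other Klf4 siRNA libraries were below theirs. The log2 fold change was -0.12 (standard error 0.037, 95% interval -0.20 to -0.041, edgeR adjusted p = 0.044). Leaving out any library other than Klf4 siRNA replicate 4 ended that call (log2 fold change -0.12 to -0.096, adjusted p of 0.090 to 0.186), as did fits in batch 1 alone (log2 fold change -0.12, adjusted p = 0.233) and without the batch term (-0.20, 0.473).

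The forkhead factors Foxa1 and Foxa2 are pioneer factors that open chromatin in foregut and pancreatic cells and can stand in for each other. Foxa2 (ENSMUSG00000037025, chromosome 2, 148042877 to 148046969, minus strand) was at 107 CPM in the pair of scramble libraries in batch 1, and Klf4 siRNA gave 109.5, 116 and 112 CPM there, while batch 2 had 95.2 and 105 CPM against 97.7 CPM. It was the only tested member whose difference had opposite signs in the batches (0.069 and -0.032), and the log2 fold change was 0.033 with a 95% interval of -0.039 to 0.11 (edgeR adjusted p = 0.634). Foxa1 (ENSMUSG00000035451, chromosome 12, 57540628 to 57546916, minus strand) had 0 counts in every library, which allows up to 3 counts, or 0.047 to 0.065 CPM depending on the library.

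**Figure D3:**
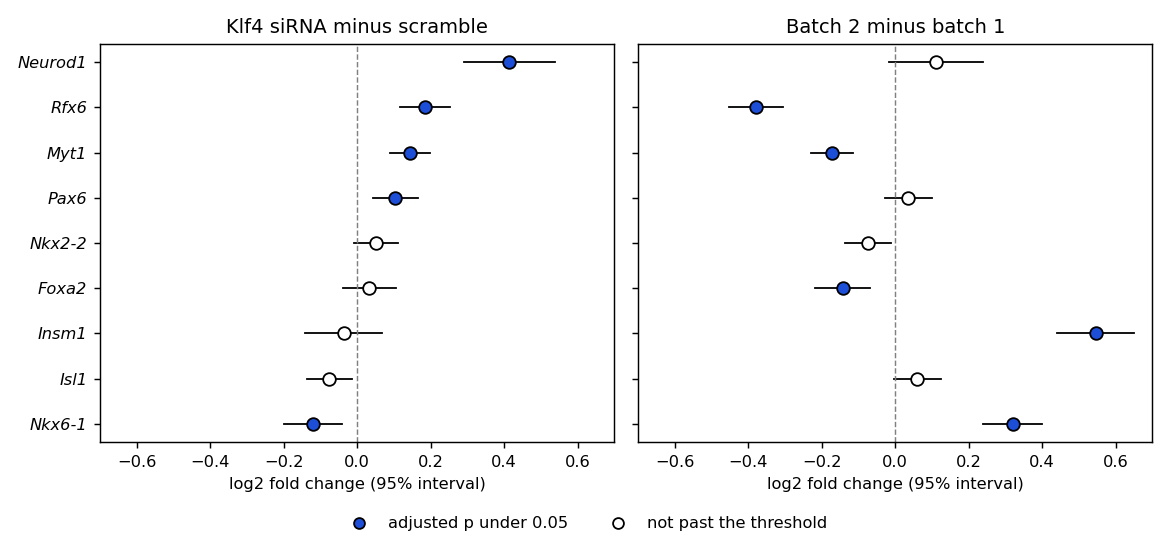
Log2 fold changes with 95% intervals from the edgeR fit (x axis) for the 9 detected factors, for Klf4 siRNA minus scramble (left) and batch 2 minus batch 1 (right); filled points had an adjusted p under 0.05. Neurod1 stands apart on the left at 0.41, and Insm1 (0.55) and Rfx6 (-0.38) lie farthest from 0 on the right.

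Seen by libraries rather than by the fit, 2 of the 9 tested factors (Neurod1 and Isl1) had groups of 4 that did not overlap, against 10.5% of all tested genes. Within both batches and in the same direction, 5 factors (Neurod1, Rfx6, Myt1, Pax6 and Isl1) had every Klf4 siRNA library outside the range of the scramble libraries, against 24.4% of all tested genes. Pax6 was among them by a narrow gap in batch 1, with Klf4 siRNA replicate 2 at 168.9 CPM and scramble replicate 1 at 168.7 CPM.

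The batches differed in 5 of the factors. With treatment as a term, Insm1 was 1.46-fold and Nkx6-1 1.25-fold higher in batch 2, and Rfx6 was 1.30-fold, Myt1 1.13-fold and Foxa2 1.10-fold lower. Their log2 fold changes for batch were 0.55, 0.32, -0.38, -0.17 and -0.14, each beside its standard error of 0.050, 0.038, 0.035, 0.027 or 0.036 (edgeR adjusted p = 5.51e-08, 2.95e-06, 3.02e-08, 4.63e-05 and 0.0042). These 5 of 9 stand beside 32.7% of all tested genes called. Neurod1 (0.11), Isl1 (0.060), Pax6 (0.035) and Nkx2-2 (-0.074) did not pass (adjusted p of 0.063 to 0.428), though Nkx2-2 did with library size alone as scaling (-0.11, edgeR adjusted p = 0.0061). For the 5 factors called, the libraries of the batches did not overlap at all, as was the case for 29.4% of tested genes. Without Klf4 siRNA replicate 4 the count was 8, with Neurod1, Nkx2-2 and Isl1 added (adjusted p of 0.00045, 0.049 and 0.049). Foxa2 was not called without Klf4 siRNA replicate 3 (0.141) or in scramble libraries alone (0.131). Scramble libraries alone still gave a higher level in batch 2 for Insm1 and Nkx6-1 and a lower one for Rfx6 and Myt1, and Neurod1 was also called there (log2 fold change 0.18, edgeR adjusted p = 0.0041), as it was with no filter on low counts (0.012). What distinguished the batches in the laboratory was not given in the sources used here.

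Rfx6, Myt1 and Nkx6-1 were called for both treatment and batch. For Rfx6 and Myt1 the directions were opposite (higher after Klf4 siRNA, lower in batch 2), and for Nkx6-1 too (lower after Klf4 siRNA, higher in batch 2). Whether the treatment difference itself differed between batches was tested by an interaction term. None of the 9 factors had an unadjusted p under 0.05 (0 of 9, against 3.31% of all genes), with the smallest at 0.141 for Neurod1, and over all genes 0 (0%) passed an adjusted p of 0.05 while 540 had an unadjusted p under 0.05 (edgeR). The test rests on a single Klf4 siRNA library in batch 2.

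The surroundings of these factors were described from 4 lists. Among 35 other transcription factors of islet development and islet cells, 24 were tested and 4 passed, all of them lower, with Sox4 and Tshz1 among them. That is 16.7% of the list, against 11.7% of all tested genes, and the median log2 fold change was -0.020. Sox4, a factor of endocrine differentiation, fell from 102.2 ± 6.34 to 79.1 ± 4.07 CPM (SD, 4 libraries each; log2 fold change -0.34 with standard error 0.033 and edgeR adjusted p = 6.48e-07). Tshz1, a zinc finger homeobox factor, fell from 106.5 ± 2.09 to 97.4 ± 3.34 CPM (log2 fold change -0.14, edgeR adjusted p = 0.0035), and without the batch term it was at -0.13 (0.085). Irx1, Irx2 and Pou3f4, further factors of alpha cells, had log2 fold changes of -0.032, -0.014 and -0.0089 that did not pass. Without scramble replicate 1 the list had 2 calls, and without the batch term 1, Sox4.

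Of 21 paralogs of the members, 12 were tested and 2 passed (16.7%, against 11.7% of all tested genes), with a median log2 fold change of -0.00069. Rfx7, a relative of Rfx6, rose from 40.8 ± 2.75 to 47.6 ± 1.02 CPM (SD, 4 libraries each; log2 fold change 0.20, edgeR adjusted p = 0.00064). Nkx6-2, a relative of Nkx6-1, had 5.09 and 5.10 CPM in scramble and 3.72, 4.15 and 4.15 CPM in Klf4 siRNA libraries of batch 1, and 15.1 and 17.6 CPM against 12.9 CPM in batch 2. The log2 fold change of Nkx6-2 was -0.35 (standard error 0.073, edgeR adjusted p = 0.0030), in the same direction as that of Nkx6-1, and it was higher in batch 2 as Nkx6-1 was. The call for Nkx6-2 was lost in batch 1 alone (0.055) and without the batch term, where its log2 fold change was -0.79 (0.627). St18 and Myt1l, the relatives of Myt1, had log2 fold changes of -0.072 and 0.016 (edgeR adjusted p = 0.090 and 0.802).

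Of 28 proteins known to bind the members or to work with them, 25 were tested and 7 passed (28%), 1 higher and 6 lower, where 11.7% of all tested genes passed, 4.88% higher and 6.81% lower. The median log2 fold change of these 25 was -0.021. Lmo1, a LIM-only protein that shares the cofactor Ldb1 with Isl1, fell from 20.3 to 13.3 CPM as means of 4 libraries (log2 fold change -0.57 with standard error 0.052 and edgeR adjusted p = 2.21e-07). Tcf4, an E protein that pairs with Neurod1, fell from 399 ± 8.19 to 331.8 ± 7.08 CPM (SD; log2 fold change -0.26, edgeR adjusted p = 2.55e-06). The groups did not overlap for either gene, and both calls were kept under each alternative run. Lmo4, the histone deacetylase genes Hdac2 and Hdac1 and the E protein gene Tcf3 had log2 fold changes of -0.15, -0.11, -0.12 and -0.10 (edgeR adjusted p = 0.0048, 0.010, 0.013 and 0.022). Each of these 4 calls was lost when 1 of at least 2 libraries was left out, with an adjusted p of up to 0.063 for Lmo4 and 0.137 for Hdac1 without Klf4 siRNA replicate 3, and 0.111 for Hdac2 and 0.139 for Tcf3 without scramble replicate 2. The called gene that was higher was Rcor1, a corepressor subunit, at 0.11 (0.029). Ldb1 itself was at 0.015 (0.812). The list had 4 calls when scramble replicate 1 was left out, 3 when scramble replicate 2 or Klf4 siRNA replicate 3 was, 3 in batch 1 alone and 2 without the batch term.

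Of 30 genes described as targets of these factors in islet or other endocrine cells, 21 were tested and 6 passed (28.6%), 1 higher and 5 lower, beside the same shares of all tested genes (11.7%, 4.88% and 6.81%). Their median log2 fold change was -0.072. Some genes of this list are also in the list of other factors above. Gcg, activated by Pax6, had a change of -0.18 (log2; edgeR adjusted p = 0.0095), and its call was lost without scramble replicate 1 (0.052) or Klf4 siRNA replicate 3 (0.093) and in batch 1 alone (0.144). Without the batch term the change of Gcg was -0.88 (0.756). Chgb, a granule protein, was at -0.18 (0.00044) and Syt13, a synaptotagmin of endocrine precursors, at -0.094 (0.033), and the call for Syt13 was lost for 6 of the 8 libraries when each was omitted (0.190 without scramble replicate 1). Slc30a8, the zinc transporter of hormone granules, rose from 377 ± 23.7 to 409.5 ± 25.7 CPM (SD, 4 libraries each; log2 fold change 0.16, edgeR adjusted p = 0.0024). Pcsk2 and Scg5, the glucagon-forming convertase and its chaperone, had log2 fold changes of 0.011 and -0.038 and did not pass. Without scramble replicate 1 the list had 2 calls and without the batch term 0; over the 4 lists, Sox4, Rfx7, Lmo1 and Tcf4 were the named genes still called without that term. In that fit Chgb was at -0.34 (0.560) and Tcf3 at -0.041 (0.868).

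**Figure D4:**
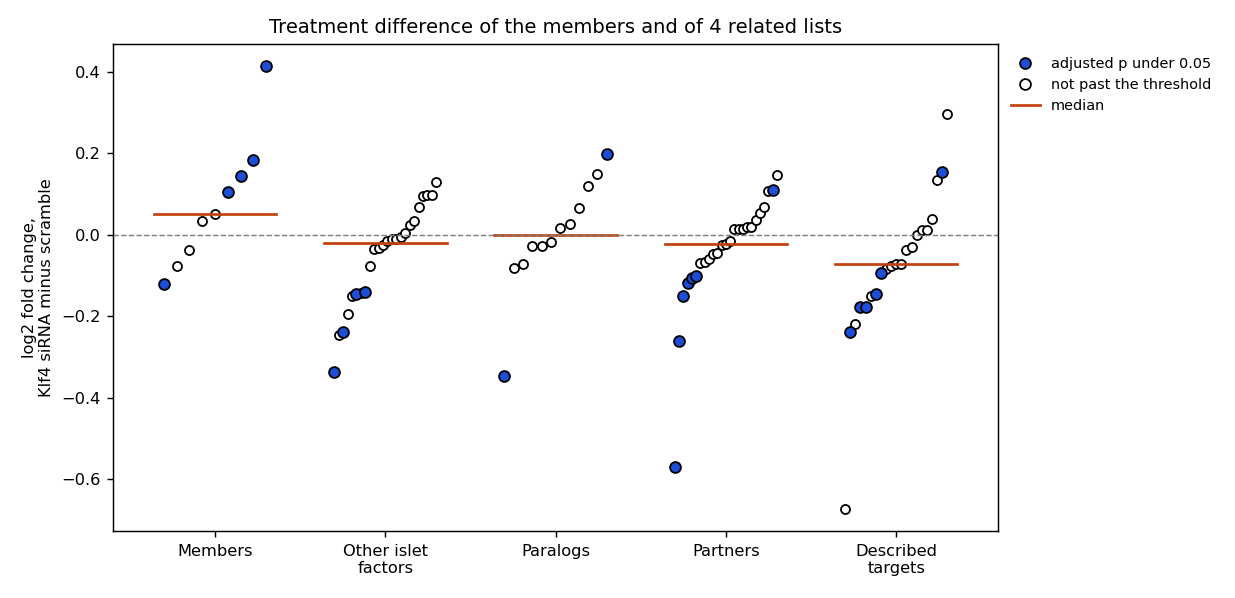
Log2 fold change of Klf4 siRNA minus scramble (y axis) for each tested gene of the 9 detected members and of the 4 lists, ordered within each by value; filled points had an adjusted p under 0.05 and the orange line is the median. The members had a median of 0.051 and the targets one of -0.072, and Lmo1 at -0.57 was the lowest called gene shown.

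The genes whose levels followed a called member most closely were named by Pearson's r of log2 CPM over the 8 libraries, after each batch mean was subtracted, among 12722 genes with a mean of at least 1 CPM. These values describe likeness only, since the treatment is part of it and the libraries are few. Dazap2, Nuf2 and Txn2 were closest to Neurod1 (r of 0.998, 0.996 and 0.996), and Lmbr1, Ikbkg and Sepsecs to Rfx6 (0.994, 0.991 and 0.990). Slc35e2, Nras and Hif1an were closest to Myt1 (0.996, 0.995 and 0.995), Ptpn23, Unk and Cep135 to Pax6 (0.992, 0.985 and 0.981), and Hspa2 and Ssr4 were among the closest to Nkx6-1 (0.978 and 0.976).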

How the data were processed

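The deposited table holds raw counts, 1 row per gene and 1 column per library, per the file headers. The submitters' processing notes name FastQC, STAR, featureCounts, DESeq2 and the build mm10, and the design text names edgeR with batch correction. Versions, annotation and use of strand were not given in the sources used here, so reads of overlapping genes could be shared or dropped. All 55536 identifiers matched GENCODE M21 (GRCm38), from which positions and lengths were taken. No column was left unmapped (0), and no row lacked a gene.

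Genes were kept with filterByExpr (16333), scaled by TMM and fitted with edgeR 4.0.16 (R 4.3.3; robust quasi-likelihood, batch and treatment, 5 residual degrees of freedom). P-values were two-sided and Benjamini-Hochberg adjusted over all tested genes, with a threshold of 0.05. Standard errors were obtained from F (the absolute log2 fold change over its square root), and 95% intervals use the fitted degrees of freedom. Within-batch differences are of mean log2 CPM (prior count 2). Totals of 45954151 to 64185987 counts set the depth, and the sources used here name no molecular identifiers or removal of PCR duplicates. The limit given for a count of 0 covers counting error only, while standard errors include the spread between libraries. The test was checked on simulated counts.

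The factors, the lists and the rule for naming genes were chosen with earlier results of these data known. All factors were named, with at most 6 called genes per list (smallest adjusted p) and the 3 most alike genes per called factor. Irx1, Irx2, Pou3f4, St18, Myt1l, Ldb1, Rcor1, Pcsk2, Scg5 and Gm42418 were named outside that rule, after their values were seen. Some genes that the rule names are not reported here. Promoters came from RefSeq (GRCm38.p6), with windows for 9 of the 10 factors and none for Insm1. Alternatives were DESeq2 1.42.0 size factors and Wald test, limma 3.58.1 voom, library size alone, a filter at a mean of 5 CPM, no filter, no batch term, a replicate block, batch 1 or scramble libraries alone, the longest transcript as length, and each library left out.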

Additional observations from a re-analysis of the deposited data

Results flagged for a closer look

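The CPM of each of the 9 detected factors was examined for a library far from the other 3 of its treatment, as the gap to the nearest library divided by the range of the 4. Of 18 groups, 1 exceeded Dixon's critical value for 4 samples, which chance passes in about 1 of 20 groups. For Rfx6, Klf4 siRNA replicate 3 was lowest at 54.4 CPM, with a gap of 0.860 of the range to Klf4 siRNA replicate 4 at 70.7 CPM. That library is alone with Klf4 siRNA in batch 2, and both scramble libraries of batch 2 (49.7 and 48.1 CPM) were also below both of batch 1 (60.1 and 65.4 CPM). The part of the batch in this value was not tested apart from the fit that holds batch as a term.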

How the results depend on the processing

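Over the alternatives, 133 of 153 member values for treatment and 126 of 135 for batch kept their direction and their side of the threshold. With no batch term, 409 genes and 1 factor (Neurod1) were called for treatment, and with batch 1 alone 1232 genes and 3 factors (Neurod1, Rfx6, Myt1); in the latter fit fewer libraries enter. With single libraries left out, 934 to 2021 genes and 3 to 6 factors were called for treatment and 4 to 8 factors for batch. The interaction was called for 0 to 13 genes, the 13 without scramble replicate 3 and none of them a factor described here. It could not be fitted without Klf4 siRNA replicate 3. The batch difference of Pax6 was -0.0025 with library size alone, the only reversal among the results computed. The cause of these moves was not tested. Replicate numbers are shared by the treatments, but deviations from the group means correlated at 0.49, 0.42, 0.72 and -0.34 for numbers 1 to 4, so the numbers were not taken as pairs, and not every library correlated best with its own number. Where the replicate block replaced batch in the model, 1220 genes passed, 1118 of them among the 1909, and 4 factors (Rfx6 had a log2 fold change of 0.28 and an adjusted p of 0.104). Under the block the calls for Gcg (log2 fold change -0.82, adjusted p 0.552), Nkx6-2 (-0.76, 0.378), Chgb (-0.33, 0.297), Tcf3 (-0.038, 0.640) and Syt13 (-0.098, 0.059) were lost too. Depth was lowest for Insm1, with 1171 to 2377 counts in a library, and Foxa1 at 0 counts cannot be tested.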
